A study of Homo sapiens with 2 samples.

Results

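The alpha-arrestins TXNIP, ARRDC1, ARRDC2, ARRDC3 and ARRDC4, together with MLXIP, the glucose-sensing transcription factor that activates some of them, were compared between HepG2 cells exposed to fluid shear stress (FSS) and HepG2 cells in static culture. The members were taken by gene symbol from the deposited transcript table and comprised 6 of 11589 gene symbols and 11 of 34714 transcripts. ARRDC5, another member of the family, was not analysed here. They were selected on the FPKM of these same libraries, in which TXNIP was already known to lie very low in FSS, so every FSS and static value of a member below is a description and carries no test. HepG2 is an established human cell line from a liver cancer, and FSS is the drag of moving fluid on the cell surface. The FSS library came from HepG2 cells under FSS for 8 h and the static library from HepG2 cells used as the control, and each library was a mix of 3 replicates at passage 10 to 15. With 1 library per group there was no replicate error for any difference, and the read depth behind the values is unknown.

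The unit was FPKM, which counts fragments relative to transcript length and library size, and transcripts were summed to give a gene. Log2 ratios are of FPKM + 1 in FSS over static cells, a scale that understates changes of low genes. A minimum of 0.5 FPKM in either library left 11221 genes. With a threshold of 1.5-fold, 10.5% of them were higher in FSS and 29.5% lower, and their median log2 ratio was -0.25. Genes reaching 5 FPKM in either library had a median of -0.23. After this value was subtracted, 17.8% were higher and 17.9% lower, and "after centring" below refers to this. Transcripts were centred on their own median at 5 FPKM, which was -0.21. Of 18 hepatocyte markers 5 were analysed here and 13, among them ALB, AFP, APOA1 and TTR, were not, so the liver label could not be settled from them. FOXA1 was at 7.41 FPKM in FSS and 5.69 FPKM in static cells, CEBPA at 0.755 FPKM in FSS and 2.15 FPKM in static cells, and VTN at 1.10 FPKM in FSS and 1.92 FPKM in static cells. ASGR1 and AMBP were at 0.176 and 0.0580 FPKM in FSS cells with a listed 0 in static cells, and the 5 summed to 9.50 FPKM in FSS and 9.76 FPKM in static cells. The keratins KRT8 and KRT18 of simple epithelium summed to 477 and 567 FPKM in FSS and static cells. Among markers of other cell types, 3 of 5 fibroblast genes were measured and summed to 6.36 FPKM in FSS and 29.8 FPKM in static cells, with COL1A1 at 5.15 FPKM in FSS and 28.0 FPKM in static cells and DCN at 0.907 FPKM in FSS and listed at 0 in static cells. Of 5 leukocyte genes 2 were measured and summed to 6.06 and 1.70 FPKM in FSS and static cells, and 1 of 5 endothelial genes was at 0.634 and 0.818 FPKM in FSS and static cells. Their part in the results was not tested.

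Alpha-arrestins are adaptor proteins that carry PPxY motifs, by which they recruit ubiquitin ligases of the NEDD4 family to membrane proteins and direct these into endosomes. TXNIP, unlike the others, also binds reduced thioredoxin and inhibits it, and it lowers glucose uptake. MLXIP, also called MondoA, pairs with MLX, enters the nucleus when glucose 6-phosphate accumulates, and binds carbohydrate response elements in the promoters of TXNIP and ARRDC4. These elements consist of E-box-like sequences separated by 5 bases.

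The promoters of TXNIP and ARRDC4, the known MondoA targets among the members, and both promoters of ARRDC2, whose transcripts differ by start, are shown as the 250 bases before the RefSeq start on GRCh38.p14, 5′ to 3′ on the strand of the gene. Capitals mark matches, on either strand, to the E-box CACGTG, to a pair of CACGNG separated by 5 bases (the paired motif), to the box CCAAT (bound by NF-Y) and to GTAAACA (bound by forkhead factors such as FOXO).
TXNIP, minus strand, chr1:145996580-145996829: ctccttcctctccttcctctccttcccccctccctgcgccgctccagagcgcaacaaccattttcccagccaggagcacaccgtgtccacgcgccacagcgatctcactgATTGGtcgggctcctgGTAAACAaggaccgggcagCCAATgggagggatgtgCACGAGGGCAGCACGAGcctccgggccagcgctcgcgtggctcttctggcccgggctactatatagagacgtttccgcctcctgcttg
ARRDC4, plus strand, chr15:97960453-97960702: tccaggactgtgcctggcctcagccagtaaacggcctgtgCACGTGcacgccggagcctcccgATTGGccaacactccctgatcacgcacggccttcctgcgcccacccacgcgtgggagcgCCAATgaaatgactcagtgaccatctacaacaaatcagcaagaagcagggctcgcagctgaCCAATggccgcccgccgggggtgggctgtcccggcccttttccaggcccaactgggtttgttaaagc
ARRDC2 upstream start, plus strand, chr19:18000874-18001123: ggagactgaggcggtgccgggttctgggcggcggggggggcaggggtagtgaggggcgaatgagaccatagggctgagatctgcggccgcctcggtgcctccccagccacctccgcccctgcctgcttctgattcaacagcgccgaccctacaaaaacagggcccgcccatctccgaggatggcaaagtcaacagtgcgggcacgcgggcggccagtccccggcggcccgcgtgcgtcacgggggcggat
ARRDC2 downstream start, plus strand, chr19:18007920-18008169: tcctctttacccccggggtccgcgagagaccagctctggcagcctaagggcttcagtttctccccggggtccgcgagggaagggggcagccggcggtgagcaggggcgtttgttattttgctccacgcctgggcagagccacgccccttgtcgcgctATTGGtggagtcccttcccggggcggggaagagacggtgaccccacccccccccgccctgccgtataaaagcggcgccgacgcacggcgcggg
RefSeq gave 9 promoter windows for the 6 members, each running from 250 bases before to 50 after a start. The TXNIP window at the upstream start held the paired motif, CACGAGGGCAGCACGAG, from base -88 to base -72 (the start is base 0), with a box of the NF-Y type at -140 and another at -105 and the forkhead motif between them at -124. The paired motif was in 20 of 35116 windows in the whole table (0.0570%), and TXNIP was the only member with it in these windows. The ARRDC4 window held an E-box at -210 and boxes of the NF-Y type at -187, -128 and -67. The E-box was in 7.26% of all windows, CCAAT in 34.6% and GTAAACA in 3.42%. Single NF-Y type boxes lay at -80 in ARRDC1, at -93 at the downstream start of ARRDC2, at -241 at the upstream start of ARRDC3 and at -76 in MLXIP. The other forkhead match was at -29 of the downstream start of ARRDC3. The upstream window of ARRDC2 and the downstream window of TXNIP had 0 matches. A match describes letters only, and no binding was measured.

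**Figure D1:**
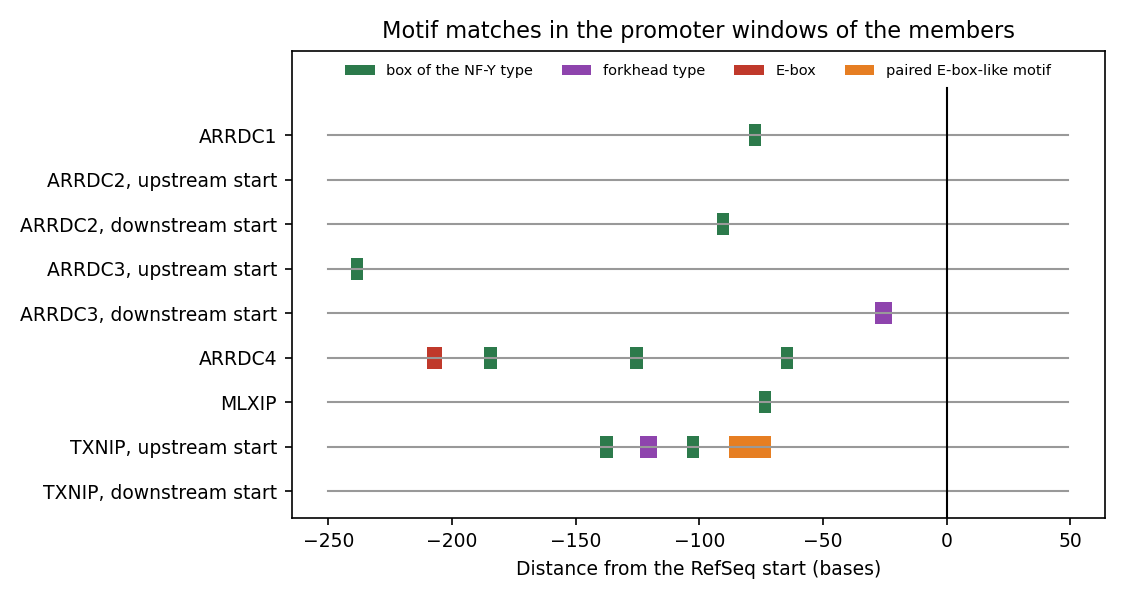
Motif matches along the 9 RefSeq promoter windows of the 6 members, drawn by distance from the start in bases. Coloured blocks are matches on either strand (NF-Y type box, CCAAT; forkhead type, GTAAACA; E-box, CACGTG; paired E-box-like motif as spelled in the text), and the paired motif appears in the TXNIP window alone, between -88 and -72.

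TXNIP was far lower in FSS than in static cells, and none of the other members reached 1.5-fold on the scale used. TXNIP (ENSG00000265972) was at 1.32 FPKM in FSS cells, against 39.5 FPKM in static cells, so that the FSS level was 3.34% of the static level. In a bulk library, fewer cells with TXNIP RNA and less of it per cell cannot be told apart. Its log2 ratio was -4.13, or -3.89 after centring and -4.90 without the added 1. On the log2 ratio used here TXNIP was the lowest of 11221 genes, whereas it was at rank 16 with 0.1 added in place of 1, at rank 4 with 5 added, at rank 2 when each gene was given by its highest transcript, and at rank 139 of 11161 with nothing added. That last order included 108 genes listed at 0 in FSS, and among 7281 genes with a mean of at least 5 FPKM TXNIP was at rank 4. TXNIP stood at percentile 15.0 of the gene levels in the FSS library and at percentile 86.8 in the static library.

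**Figure D2:**
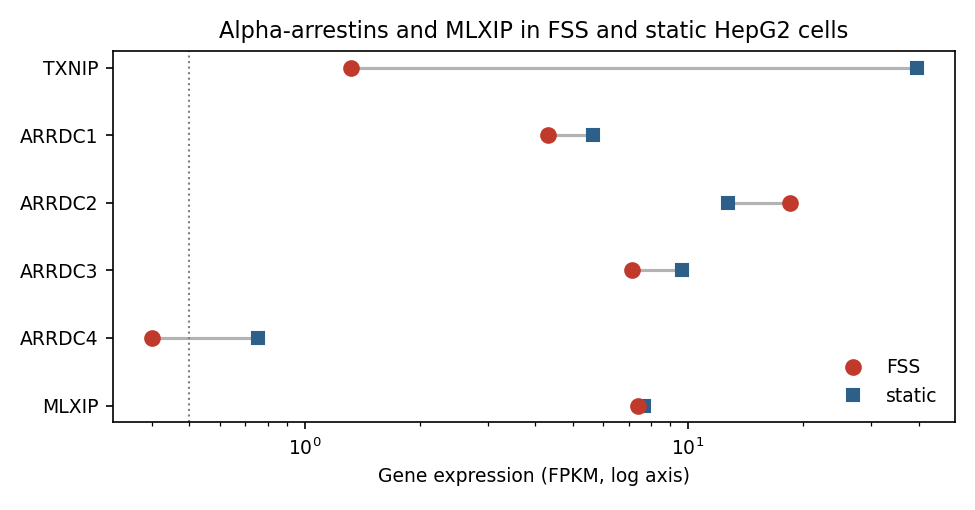
FPKM of each member gene in the FSS library (red circles) and the static library (blue squares), 1 library each, on a log axis, with the 0.5 FPKM minimum dotted. TXNIP is at 1.32 FPKM in FSS and 39.5 FPKM in static cells, ARRDC2 alone is higher in FSS, and ARRDC4 is under 1 FPKM in both.

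ARRDC4, the closest relative of TXNIP and likewise a restraint on glucose uptake, was hardly expressed. It was at 0.399 FPKM in FSS cells and 0.753 FPKM in static cells, at percentiles 4.01 and 5.33 of the gene levels. Its log2 ratio was -0.33, close to the -0.25 of all genes, and it was 1.89-fold lower when nothing was added to the FPKM. That difference is 0.355 FPKM, at a depth that is unknown, so its direction is uncertain.

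The remaining alpha-arrestins differed less. ARRDC1, which gathers TSG101 at the plasma membrane to release microvesicles, was at 4.31 FPKM in FSS cells and 5.66 FPKM in static cells, a log2 ratio of -0.33. ARRDC3, which links NEDD4 ligases to cargo such as the beta-2 adrenergic receptor and integrin beta-4, was at 7.16 and 9.66 FPKM in FSS and static cells, a log2 ratio of -0.38. Both remained slightly lower after centring, at -0.09 and -0.15. ARRDC2, a less studied adaptor of the family, was at 18.5 FPKM in FSS cells and 12.7 FPKM in static cells, giving 0.51 on the log2 scale, and centring moved it to 0.74, past 1.5-fold. ARRDC1 and ARRDC3 are overlapped by the antisense genes ARRDC1-AS1 and ARRDC3-AS1, and reads of sense and antisense RNA cannot be told apart where strand was not used in counting. In all, 1 of 5 alpha-arrestins was past 1.5-fold in the lower direction, where 29.5% of all genes were, and 0 in the higher direction, where 10.5% were. Centring gave 1 lower and 1 higher, against 17.9% and 17.8% of all genes. The median of the 5 was -0.33, against -0.25 for all genes.

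The order of the levels within the family differed between the libraries mainly through TXNIP. In FSS cells the order was ARRDC2, ARRDC3, ARRDC1, TXNIP and ARRDC4. In static cells TXNIP stood first, followed by ARRDC2, ARRDC3, ARRDC1 and ARRDC4, so that the other 4 kept their order. Without replicates no neighbours in these orders can be separated by an error. FPKM summed over the 5 genes was 31.7 in FSS cells and 68.3 in static cells, and TXNIP made up 4.16% of it in FSS and 57.8% in static cells. The sum without TXNIP was 30.3 FPKM in FSS cells and 28.8 FPKM in static cells, 1.05-fold higher.

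**Figure D3:**
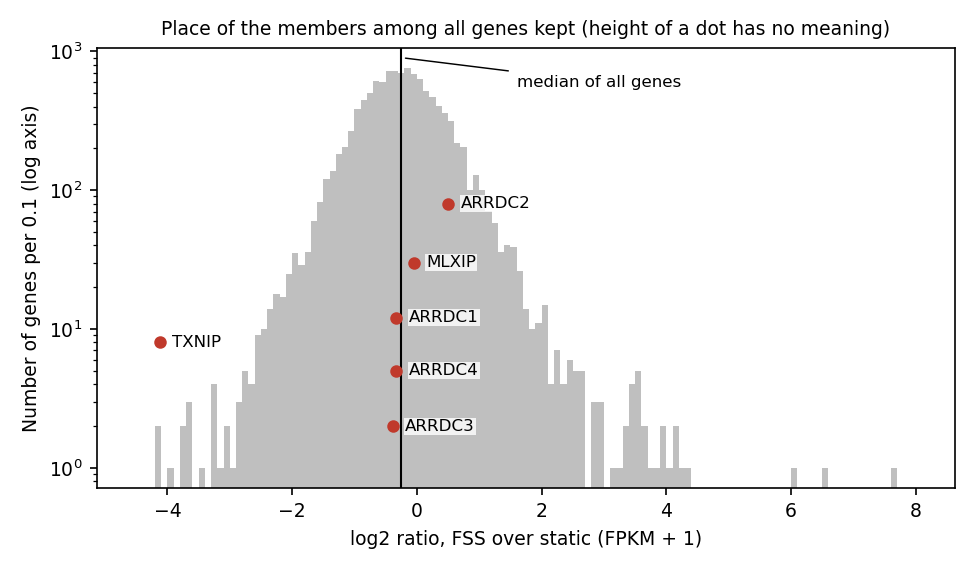
Log2 ratios of FPKM + 1, FSS over static, for 11221 genes (grey histogram, count per 0.1 on a log axis), with the members as red dots whose height has no meaning and the median of all genes as a black line. TXNIP lies at -4.13 at the left edge, and the other 5 members lie between -0.38 and 0.51.

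By transcript, TXNIP rested on 1 row, ARRDC3 and ARRDC4 on 1 each, ARRDC1 on 2, ARRDC2 on 4 and MLXIP on 2. Of the 11 rows, 10 reached 0.5 FPKM in a library. MLXIP-003, at 0.450 FPKM in FSS and 0.188 FPKM in static cells, did not. Among those 10, ARRDC2-201 and ARRDC2-204 were past 1.5-fold in the higher direction and TXNIP-204 in the lower, where 18.4% of 30339 transcripts were higher and 27.9% lower. Centring gave 3 higher and 1 lower, where 25.2% and 18.6% of all transcripts were. The row of TXNIP was TXNIP-204, which GENCODE release 29 gives as a protein-coding transcript of 8 exons and 2926 bases. Any other TXNIP transcript had no row, so its level is unknown and the TXNIP values are those of TXNIP-204 alone.

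ARRDC2 had transcripts from different starts, with different ratios. ARRDC2-201, which begins near the downstream start, was at 10.1 FPKM in FSS cells and 6.33 FPKM in static cells, a log2 ratio of 0.60. ARRDC2-202, which begins near the upstream start, was at 6.96 FPKM in FSS cells and 6.02 FPKM in static cells, a log2 ratio of 0.18. Its share of the gene was 37.7% in FSS and 47.3% in static cells. ARRDC2-204, a shorter transcript from the downstream start, was at 0.579 FPKM in FSS and 0.00902 FPKM in static cells. With ARRDC2-206, at 0.838 and 0.359 FPKM in FSS and static cells, it made up the rest of the gene. Transcripts sharing the downstream start summed to 10.7 FPKM in FSS and 6.34 FPKM in static cells, 1.68-fold higher, against 1.16-fold for the upstream start. Transcripts of a gene share sequence, so their split is an estimate.

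ARRDC1-201 carried 92.6% of ARRDC1 in FSS and 89.1% in static cells, at 3.99 and 5.04 FPKM in FSS and static cells. ARRDC1-202 was at 0.320 FPKM in FSS and 0.619 FPKM in static cells. The shares of the ARRDC1 transcripts were therefore close in both libraries, unlike those of ARRDC2.

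**Figure D4:**
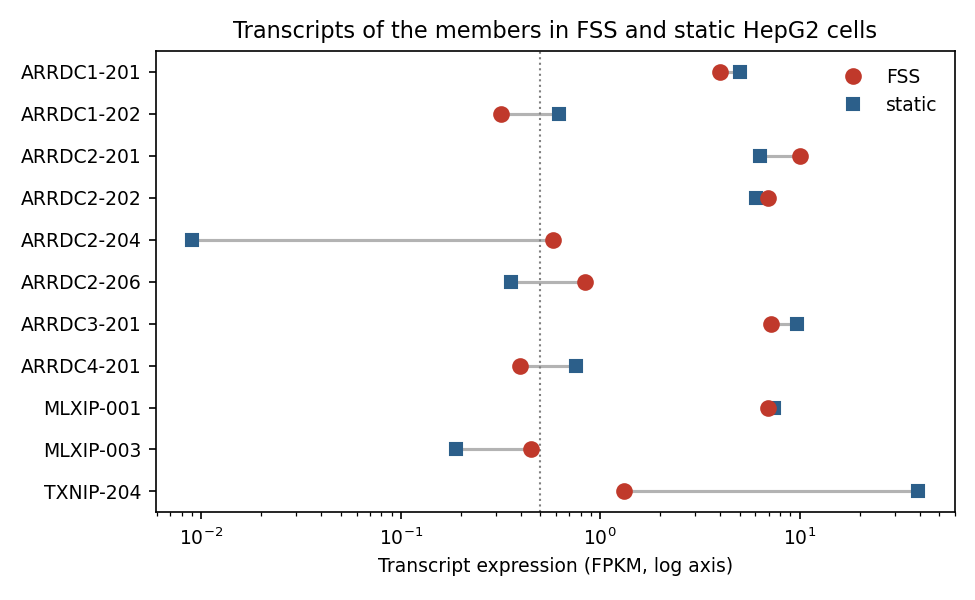
FPKM of each of the 11 member transcripts in the FSS library (red circles) and the static library (blue squares) on a log axis, with 0.5 FPKM dotted. ARRDC2-201 is higher in FSS at 10.1 FPKM, against 6.33 FPKM in static cells, ARRDC2-202 differs less, and ARRDC2-204 is at 0.00902 FPKM in static cells.

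MLXIP, the activator, differed little between the libraries. It was at 7.40 FPKM in FSS cells and 7.68 FPKM in static cells, or -0.05 on the log2 scale and 0.19 once centred, so its sign depends on the scaling. MLXIP-001 carried 93.9% of it in FSS and 97.5% in static cells, at 6.96 and 7.49 FPKM in FSS and static cells.

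Most genes of the network around MLX, the partner of MLXIP, were lower in FSS. In the MAX and MLX network, 6 of 10 genes passed 1.5-fold in the lower direction and 1 in the higher (centred, 5 and 1), and the median was -0.93, or -0.70 centred and -0.54 with 5 added in place of 1. Beside this count and those of the lists below, 29.5% of all genes were lower and 10.5% higher (centred, 17.9% and 17.8%). Counts near these shares do not set a list apart from other genes. MLX, the obligate partner of MLXIP, was at 12.6 FPKM in FSS cells and 21.9 FPKM in static cells, a log2 ratio of -0.75. It lay within 1.5-fold when centred, at -0.52. MLXIPL, the related glucose sensor ChREBP, was at 0.901 and 3.13 FPKM in FSS and static cells, with a log2 ratio of -1.12. MLX and MLXIPL were named after their values were seen, for their relation to MLXIP. MYC, which with MAX also binds E-boxes, was at 7.01 FPKM in FSS cells and 121 FPKM in static cells. The MAX-binding repressors MXI1 and MXD3 had log2 ratios of -2.20 and -2.02, whereas MXD1, another of them, was at 6.27 FPKM in FSS cells and 0.189 FPKM in static cells.

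Other genes that MondoA or ChREBP can activate lay mostly within 1.5-fold. Of 12 measured genes 1 was lower and 1 higher, and the median was -0.14, or 0.10 centred. HK2, which phosphorylates glucose, was at 30.3 FPKM in FSS cells and 11.7 FPKM in static cells. FASN, the fatty acid synthase, had a log2 ratio of -0.86, and ACLY and ACACA, which supply its substrates, had log2 ratios of -0.52 and -0.50. The paired promoter motif of TXNIP was found in windows of 20 genes, 15 of which passed the expression minimum. Of these, 5 passed 1.5-fold in the lower direction and 2 in the higher, beside 29.5% and 10.5% of all genes, and centring left 2 lower, TXNIP and TIGD1, and 2 higher. The 5 include TXNIP itself, whose low value was known beforehand, so the count was not a test of the motif. All 5 and 2 are named because the counts are small, after their values were seen. Beside TXNIP, TIGD1, HPF1, AKAP10 and TCEAL4 had log2 ratios of -1.29, -0.81, -0.65 and -0.64, and MYL5 and KCTD5 had log2 ratios of 1.13 and 1.12. GFPT1, the first enzyme of hexosamine synthesis, also held the motif and was at 20.4 FPKM in FSS and 17.1 FPKM in static cells. It too was named after its values were seen.

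The cytosolic thioredoxin TXN, which TXNIP inhibits, and its reductase TXNRD1 were higher in FSS, and their mitochondrial counterparts were not. TXN was at 512 FPKM in FSS cells and 290 FPKM in static cells, and TXNRD1, which reduces it, was at 502 and 151 FPKM in FSS and static cells. SRXN1, which repairs overoxidised peroxiredoxins, was at 199 FPKM in FSS cells and 32.6 FPKM in static cells. NXN, a nucleoredoxin, was at 0.522 and 2.01 FPKM in FSS and static cells. Of 15 genes of the system 3 were higher and 2 lower (centred, 5 and 1), and the median was -0.07, or 0.16 centred. TXN2, the mitochondrial thioredoxin, was at 18.7 FPKM in FSS cells and 30.5 FPKM in static cells, a log2 ratio of -0.67, and lay within 1.5-fold when centred, at -0.44. TXNRD2, its reductase, had a log2 ratio of -0.44 before centring. TXN2 and TXNRD2 were named after their values were seen. By FPKM, TXN was at 389 times the level of TXNIP in FSS cells and 7.35 times in static cells.

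Of the partners of TXNIP and the inflammasome, 4 of 8 were analysed here, with 1 lower and 0 higher and a median of -0.16, or 0.07 centred. MAP3K5, the kinase ASK1 that thioredoxin holds inactive, was at 2.23 FPKM in FSS cells and 6.40 FPKM in static cells. DDIT4, which binds TXNIP, was at 240 and 205 FPKM in FSS and static cells, COPS5 at 53.7 and 67.7 FPKM in FSS and static cells, and IL18, a cytokine matured by the inflammasome, at 65.0 and 64.6 FPKM in FSS and static cells.

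Glucose uptake and phosphorylation genes went both ways, with 3 of 8 measured genes higher and 2 lower (centred, 3 and 1) and a median of -0.16, or 0.07 centred. Its sign turned when only genes reaching 5 FPKM were kept, with a median of 0.47. SLC2A1, the transporter GLUT1 that TXNIP removes from the cell surface, was at 31.7 FPKM in FSS cells and 15.9 FPKM in static cells. HKDC1, a hexokinase domain protein, was at 9.32 FPKM in FSS cells and 1.09 FPKM in static cells, and HK2 is given above. SLC2A3, the transporter GLUT3, was at 2.51 and 7.88 FPKM in FSS and static cells.

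Among ubiquitin ligases of the NEDD4 family and their adaptors, 3 of 10 were higher and 0 lower (centred, 4 and 0). The median was -0.0017, or 0.23 centred. Not every ligase of the list need be a partner of alpha-arrestins. SMURF2, NEDD4L and SMURF1 had log2 ratios of 1.03, 0.93 and 0.64. ITCH, the ligase that ubiquitinates TXNIP itself, was at 10.4 FPKM in FSS cells and 11.1 FPKM in static cells, and was named after its values were seen. HECW1 was at 0.106 and 0.516 FPKM in FSS and static cells.

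Known cargo of alpha-arrestins had 2 of 7 measured genes higher and 1 lower (centred, 2 and 1), and the median was -0.17, or 0.06 centred. NOTCH1, a cargo of ARRDC1, was at 5.32 FPKM in FSS cells and 2.35 FPKM in static cells. ITGB4, the integrin beta-4 handled by ARRDC3, was at 12.3 and 22.7 FPKM in FSS and static cells, and SLC11A2, an iron transporter, had a log2 ratio of -0.51. YAP1, a transcriptional coactivator that ARRDC1 and ARRDC3 can bring to ITCH, was at 109 FPKM in FSS cells and 150 FPKM in static cells, within 1.5-fold, with a log2 ratio of -0.46. Its transcripts differed far more than the sum. YAP1-202 was at 0.616 FPKM in FSS cells and 103 FPKM in static cells. YAP1-209 was at 89.0 FPKM in FSS cells and 2.99 FPKM in static cells. The split of reads between transcripts is an estimate with no replicate. YAP1 and these transcripts were named after their values were seen.

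The ESCRT genes, which sort ubiquitinated cargo and pinch off the vesicles that ARRDC1 forms, had the highest median of the 11 lists, except that with a filter at 5 FPKM it was 0.16 and the glucose transport list stood above it at 0.47. With the usual filter it was 0.22, or 0.46 after centring, with 5 of 14 genes higher and 1 lower (centred, 5 and 0). UBAP1 was at 34.4 FPKM in FSS cells and 16.2 FPKM in static cells, VPS37B, of ESCRT-I, at 26.5 and 12.5 FPKM in FSS and static cells, and VPS4B, the ATPase that disassembles ESCRT, at 34.5 and 19.7 FPKM in FSS and static cells. STAM, of ESCRT-0, had a log2 ratio of 0.72. The transcripts of UBAP1 went both ways. UBAP1-202 was at 26.4 FPKM in FSS cells and 0.00488 FPKM in static cells, and UBAP1-201 at 3.63 and 11.7 FPKM. These transcripts were named after their values were seen, and their split is an estimate. TSG101, the direct partner of ARRDC1, was at 14.5 and 18.9 FPKM in FSS and static cells, and was named after its values were seen.

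Beta-arrestins and the retromer, only some of whose proteins have the arrestin fold, were compared with the family. Of 7 measured genes of the beta-arrestins and the retromer, 3 were lower and 1 higher (centred, 3 and 1), and the median was -0.48, or -0.24 centred. ARRB2 and ARRB1, which desensitise G-protein-coupled receptors, were at 5.68 and 4.17 FPKM in FSS cells, against 14.9 and 8.17 FPKM in static cells. The retromer subunit VPS26A was at 54.8 FPKM in FSS cells and 12.2 FPKM in static cells, while its paralogue VPS26B was at 9.08 and 17.7 FPKM in FSS and static cells.

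FOXO factors and glucocorticoids, which also raise alpha-arrestin transcripts in other cells, were followed through their own targets. Of 12 FOXO genes 5 were lower and 0 higher (centred, 5 and 2), and the median was -0.23, or 0.01 centred and -0.93 with a filter at 5 FPKM. FOXO4 was at 1.41 FPKM in FSS cells and 5.87 FPKM in static cells, and PDK4, CITED2 and SESN1 had log2 ratios of -1.42, -1.25 and -0.93. Of 8 glucocorticoid genes 4 were lower and 0 higher (centred, 2 and 0), and the median was -0.61, or -0.38 centred. KLF9 was at 2.18 FPKM in FSS cells and 7.66 FPKM in static cells, and SGK1 at 14.7 and 34.8 FPKM in FSS and static cells. CEBPD and PER1 had log2 ratios of -0.80 and -0.64, and lay within 1.5-fold when centred, at -0.57 and -0.41. The transcripts of PER1, seen before they were named, went both ways. PER1-201 was at 4.45 FPKM in FSS cells and 0.759 FPKM in static cells. PER1-211 was listed at 0 in FSS cells and at 6.07 FPKM in static cells.

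**Figure D5:**
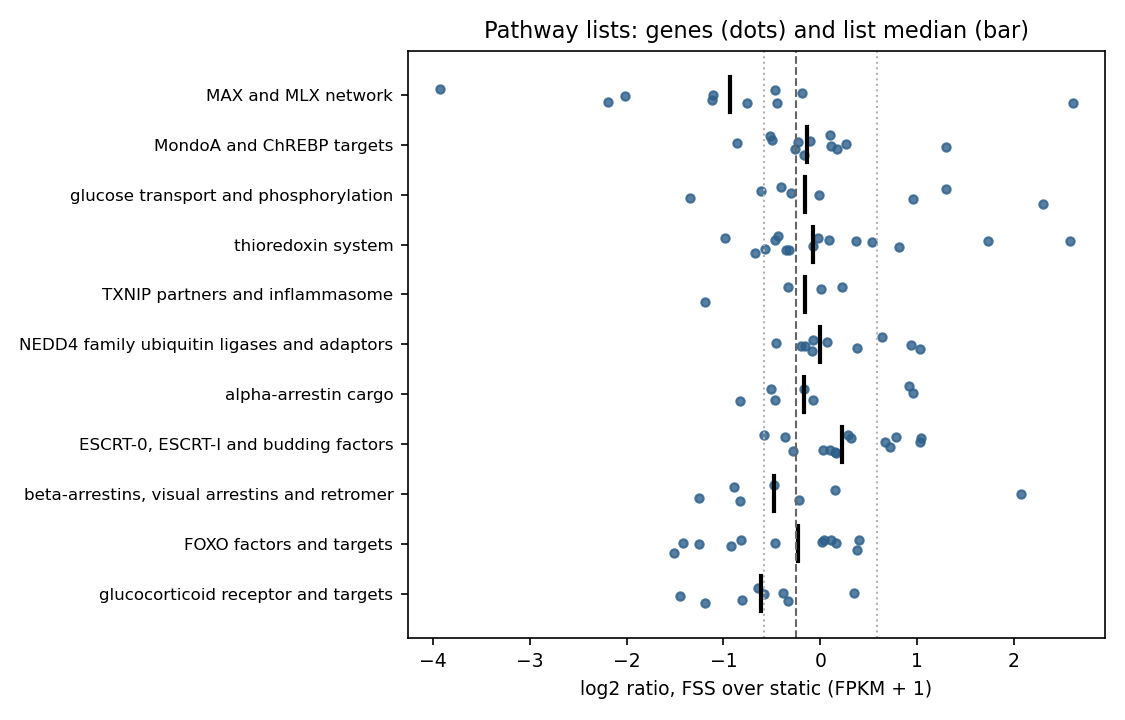
Log2 ratios of FPKM + 1, FSS over static, for the measured genes (dots) of 11 lists around the alpha-arrestins, with the list median (bar), the median of all genes at -0.25 (dashed) and 1.5-fold in each direction (dotted). The MAX and MLX network has the lowest median, -0.93, and the ESCRT list the highest, 0.22, whereas with a filter at 5 FPKM the FOXO list is lowest and the glucose transport list highest.

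The genes nearest to TXNIP in both libraries, by the Euclidean distance of log2(FPKM + 1) over the 2 libraries, were LPCAT1, U2AF1L5, RAB31, PPP1R9B and SLC12A3, at distances of 0.27, 0.30, 0.42, 0.74 and 0.76. LPCAT1, an enzyme that remodels phosphatidylcholine, was at 1.03 FPKM in FSS cells and 34.3 FPKM in static cells. RAB31, a GTPase of vesicle transport, was at 2.09 FPKM in FSS cells and 38.1 FPKM in static cells. U2AF1L5 is a close copy of U2AF1, so its own value of 1.77 FPKM in FSS and 35.2 FPKM in static cells is uncertain. None of these genes is in the 11 lists.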

How the data were processed

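The authors deposited FPKM per transcript for 2 libraries. By the study's methods, abundance was estimated with StringTie and FPKM extracted with Ballgown at a minimum of 0.5, yet 4375 of 34714 transcripts lay under 0.5 in both libraries. Tools listed in the submitters' processing notes are HISAT2 2.0.5, STAR 2.5.2b, StringTie and cutadapt, and the build is hg19. Whether counting used strand is not given in the sources used here. FPKM is relative to each library, so a few abundant genes can lower the rest. There were 0 value columns not tied to a sample.

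FPKM was summed by symbol, genes at or over 0.5 FPKM in a library were kept, and 1 was added before log2. The threshold for calling a gene higher or lower was 1.5-fold. No test was made, because there was 1 library per group. Simulated data were used only to check the 1.5-fold rule on genes, with known changes in genes at or over 5 FPKM. The members and the 11 lists were chosen with earlier results of these data known. Named were all members and their transcripts, up to 4 genes per list with the largest absolute log2 ratio, and the 5 genes nearest to TXNIP. Others are stated as chosen after their values were seen. Transcript types came from GENCODE release 29 and promoters from RefSeq, both on GRCh38, and no position was taken from the files. All 6 members matched a promoter by symbol. A planned comparison of member proteins was not made. Calculations ran in Python 3.11.15 with pandas 2.3.3 and numpy 2.4.6, and plots in matplotlib 3.10.9.

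Alternatives were a pseudocount of 0.1 or 5, centring, rescaling to a sum of 1000000, no filter or 5 FPKM, a fold of 2, the highest transcript, promoters without the bases after the start and, added after seeing the data, no pseudocount.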

Additional observations from a re-analysis of the deposited data

How the results depend on the processing

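TXNIP stayed lower in FSS and past the fold in every alternative, with log2 ratios from -4.90 to -2.82. ARRDC1, ARRDC3 and ARRDC4 stayed lower and ARRDC2 higher in each alternative run, while MLXIP ranged from -0.09 to 0.19. A pseudocount, a filter or another fold cannot turn the sign of a gene. Only centring, rescaling and, for genes of several transcripts, the highest transcript could do so. ARRDC4 was left out by the filter at 5 FPKM. Member genes counted as lower were 1, and 2 with a pseudocount of 0.1 or none, by the addition of ARRDC4. Member genes counted as higher were 0, and 1 after centring or with the highest transcript, which was ARRDC2. Member transcripts counted as lower were 1, and 3 with a pseudocount of 0.1 or none. Those counted as higher were 2, but 3 with a pseudocount of 0.1 or none, after centring or after rescaling, 1 with the filter at 5 FPKM, and 0 with a pseudocount of 5 or a fold of 2. Over all lists 26 genes were lower and 17 higher, and after centring 20 were lower and 22 higher. Among all genes 29.5% were lower and 10.5% higher, and after centring 17.9% and 17.8%. More lower than higher calls were thus not particular to the lists. A pseudocount of 5 gave 17 lower, and a fold of 2 gave 13 lower and 9 higher. In each alternative but the filter at 5 FPKM the MAX and MLX list had the lowest median and the ESCRT list the highest. With that filter FOXO was lowest, at -0.93, and glucose transport highest, at 0.47. Counts of promoter windows with a motif were the same without the bases after the start. Unknown depth limits ARRDC4, ARRDC1-202, ARRDC2-204, ARRDC2-206 and MLXIP-003 most, all of which were under 1 FPKM in both libraries. No paired analysis was possible because each group had 1 library and no test was made.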

Other observations

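Several partners of the alpha-arrestins were made up of different transcripts in the FSS and static libraries. These genes were chosen after their values were seen, and the split of reads between transcripts is an estimate with no replicate. MLX-202 was at 1.57 FPKM in FSS cells and 11.9 FPKM in static cells, whereas MLX-209 was at 6.23 FPKM in FSS cells and 2.02 FPKM in static cells. MLX-209 thus made up 49.4% of MLX in FSS and 9.22% in static cells. NDFIP2, an adaptor of NEDD4 ligases, summed to 15.9 FPKM in FSS and 15.2 FPKM in static cells. Its transcript NDFIP2-206 was at 5.25 and 0.721 FPKM in FSS and static cells, and NDFIP2-205 at 0.00578 and 3.57 FPKM in FSS and static cells. NEDD4L-204 was at 15.1 FPKM in FSS cells and 0.325 FPKM in static cells, while NEDD4L-207 was listed at 0 in FSS cells and at 8.95 FPKM in static cells. TXNRD1-212 was at 413 FPKM in FSS cells and 0.0679 FPKM in static cells, while TXNRD1-205 was at 12.3 FPKM in FSS cells and 93.9 FPKM in static cells. MXI1-203 was listed at 0 in FSS cells and at 12.4 FPKM in static cells. TXNIP had 1 listed transcript, TXNIP-204, so a split between its transcripts cannot be seen here. A shift to a TXNIP transcript that is not listed was not tested.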
